A study of Mus musculus with 15 samples.

Results

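The comparison described here is that of ΔEGFR transgenic mice with wild-type (WT) mice given mineral oil, the carrier used for the liver toxin carbon tetrachloride (CCl4), so it concerns liver that received no toxin. RNA was measured in primary mouse hepatocytes, and the members were chosen by the labels: 4 ΔEGFR and 4 WT mineral oil libraries of 15 libraries in all. The other 7 libraries, 3 WT and 4 ΔEGFR, came from mice given CCl4. They entered the edgeR fit of all 15 libraries, and so the spread behind its standard errors, intervals and p-values. Their own values are given only where stated. The labels give no strain, age, sex, dose, time or animal number, and do not say how the transgene is built or driven. In earlier descriptions of these mice, ΔEGFR is a truncated human EGF receptor without its catalytic part, directed to hepatocytes, that acts as a dominant negative. Nothing in the labels says that libraries of a group came from separate animals, so each p-value reflects only how much these libraries vary, which may be technical.

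The EGF receptor (EGFR) is a membrane tyrosine kinase. Ligands such as TGF-alpha, released from the cell surface by proteases, make it pair with itself or with its relatives ERBB2 and ERBB3, and the active pair drives the RAS to ERK cascade and PI3 kinase. Hepatocytes carry much EGFR, and the receptor is known for its part in hepatocyte survival and in the growth of the liver after loss of tissue. ERK signalling induces early response genes such as Egr1 and Fos, feedback inhibitors such as Dusp6 and the Sprouty genes, and cyclin D1.

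No gene was called between ΔEGFR and WT in mineral oil: 0 of 17975 genes tested (0%) had an adjusted p under 0.05 by edgeR's quasi-likelihood test with Benjamini-Hochberg adjustment, and the lowest adjusted p was 0.636. An unadjusted p under 0.05 was reached by 1197 genes (6.66%), of which 456 (2.54%) had a higher and 741 (4.12%) a lower mean in ΔEGFR. This count was 796 without ΔEGFR replicate 1, 1845 without ΔEGFR replicate 4 and 1920 without WT replicate 4. DESeq2, run as an alternative, called 5 genes. In 259 genes (1.44%) every ΔEGFR library was above every WT library, and in 231 (1.29%) every one was below. The spread sets what could be seen. The 95% interval of the log2 fold change lay within 2-fold in both directions for 9075 of 17968 genes (50.5%), and for 83.3% of genes with a mean log2 CPM (counts per megacount) over 5. The median gene's interval reached 0.72 on the log2 scale to either side. All values below are therefore differences between these libraries that did not pass the test.

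Libraries differed widely within each group. Total counts, in megacounts (M), were 135.54, 56.89, 61.89 and 60.15 M in WT replicates 1 to 4 and 130.79, 132.55, 140.61 and 98.63 M in ΔEGFR replicates 1 to 4. Their means were 78.6 ± 38 and 125.6 ± 18.5 M (SD, n = 4 each), and a two-sided exact permutation test gave p = 0.114, where 70 arrangements allow no p under 0.0286. Without WT replicate 1 the difference grew from 47 to 66 M (exact permutation p = 0.0286). Correlations of log2 CPM ran from 0.722 to 0.97 within groups and from 0.717 to 0.974 between them, and the closest pair of all was WT replicate 3 with ΔEGFR replicate 4. Mitochondrially encoded genes took 11.79% of the counts in WT replicate 1, 16.92% in ΔEGFR replicate 1 and 2.17% to 4.64% in the other 6 libraries.

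Transcripts of other liver and blood cells varied more between libraries than between genotypes. The mean log2 CPM of 124 markers of macrophages, endothelium, stellate cells, bile duct and leukocytes was 4.06, 0.10, -0.53 and 2.04 in the WT libraries and 2.75, 1.88, 1.91 and -0.37 in the ΔEGFR libraries. Hepatocyte markers were abundant in all 8, with summed levels of 105000 to 186000 CPM in WT and 125000 to 209000 CPM in ΔEGFR. WT replicate 1 stood apart. Its 13 neutrophil markers summed to 2120 CPM against 3.27 to 41.5 CPM in the other WT libraries and 2.83 to 182 CPM in ΔEGFR, and its 18 T and NK cell markers to 335 CPM against 2.35 to 13 and 3.98 to 32.9 CPM. The 24 macrophage and Kupffer cell markers summed to 294 to 3620 CPM in WT and 211 to 1960 CPM in ΔEGFR. Summed levels of the 22 endothelial markers were 149 to 1640 CPM in WT and 176 to 836 CPM in ΔEGFR. The 21 stellate cell and fibroblast markers gave 75.4 to 385 CPM in WT and 75.8 to 433 CPM in ΔEGFR, and the 13 bile duct markers 62 to 228 and 43.8 to 306 CPM. No list had a member at 0 in all 8 libraries. Of the defining markers, Ptprc (the leukocyte antigen CD45), Clec4f (Kupffer cells), Stab2 (sinusoidal endothelium) and Lrat (stellate cells) were counted in every library, and Krt19 (bile duct) was at 0 in WT replicate 2. In bulk libraries a lower level can mean fewer cells of a type or less RNA per cell, and these cannot be told apart.

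**Figure D1:**
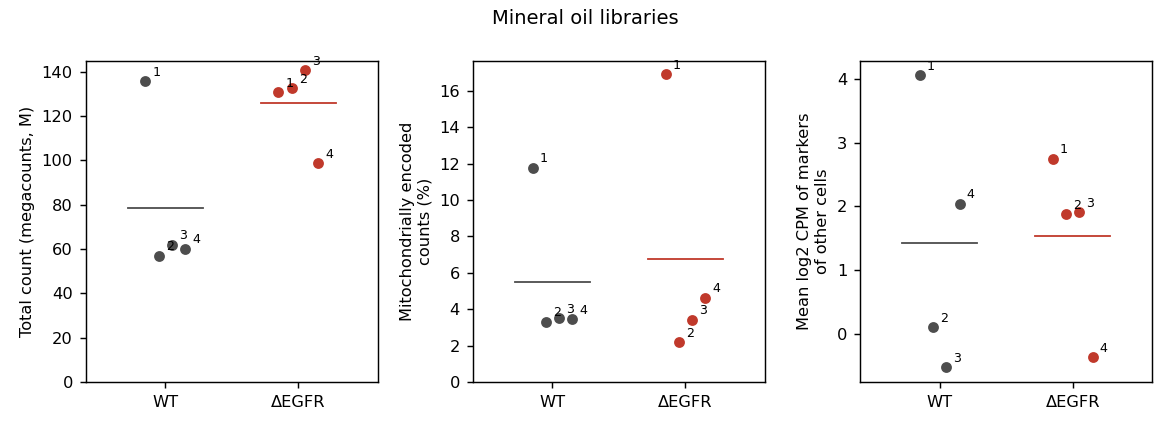
Each point is 1 mineral oil library, numbered by replicate, and each line is the group mean. The panels plot total count in megacounts (M), the percent of counts from mitochondrially encoded genes, and the mean log2 CPM of 124 markers of other cells. WT replicate 1 is the highest WT library in all 3 panels, with 135.54 M counts, 11.79% and 4.06.

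The series title names the EGFR pathway in the liver, and the receptor was followed first. Egfr (ENSMUSG00000020122.17), the mouse receptor gene, measured 720, 1000, 1510 and 1360 CPM in WT and 970, 1120, 492 and 1710 CPM in ΔEGFR. The groups overlapped fully, with the lowest and the highest value both in ΔEGFR (log2 fold change -0.10 ± 0.38 SE, 95% interval -0.92 to 0.72). A transgene of human sequence may add nothing to this count, which therefore cannot serve as a test of the genotype labels. Erbb3, the kinase-poor partner receptor, was at 64, 194, 172 and 217 CPM in WT and 144, 104, 142 and 208 CPM in ΔEGFR (-0.12 ± 0.37). Erbb2 and Erbb4 were scarce, at 0.18 to 1.38 and 1.14 to 2.83 CPM in WT and at 0.152 to 1.13 and 0.568 to 2.26 CPM in ΔEGFR. Neither separated the groups.

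Most restraints of the receptor had slightly lower means in ΔEGFR. Lrig1, which sends EGFR for degradation, measured 63.3, 63, 75.9 and 55.3 CPM in WT and 52.3, 54.3, 39.2 and 54.3 CPM in ΔEGFR. Every ΔEGFR library was below every WT library, by a small margin (-0.36 ± 0.17, unadjusted p = 0.0577, adjusted p = 0.713 by edgeR). Errfi1, an inhibitor of the active kinase, was at 1660, 1590, 1580 and 1310 CPM in WT and 1170, 1100, 899 and 1850 CPM in ΔEGFR, so 3 of 4 ΔEGFR libraries lay below the WT range and the other above it. Of the 19 receptors and restraints tested, 16 had a negative log2 fold change and none an unadjusted p under 0.05. Their median was -0.19, beside -0.01 over all genes tested, and -0.09 without WT replicate 1. It was also -0.09 with the trend with gene length described below removed.

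Among the ligands, Tgfa was the most abundant, with 20.8, 36.5, 45.8 and 44.9 CPM in WT and 40.9, 60.2, 75 and 31.9 CPM in ΔEGFR. The 2 highest libraries were ΔEGFR, but ΔEGFR replicates 1 and 4 lay among the WT values (0.49 ± 0.35). Btc, which encodes betacellulin, ranged from 1.01 to 4.88 CPM in WT and 1.7 to 6.37 CPM in ΔEGFR (0.82 ± 0.56; 1.52 without WT replicate 4). Hbegf ranged from 0.22 to 6.86 CPM in WT and 0.443 to 1.29 CPM in ΔEGFR (-1.32 ± 0.84), and its sign rested on WT replicate 1, without which the log2 fold change was 0.13. Egf and Areg were near the lower end of what was counted, at 0.838 CPM and 0.245 CPM or less in every library. Nrg1, a neuregulin that binds ERBB3 and ERBB4, ranged from 0.104 to 5.09 CPM in WT and 0.248 to 12.6 CPM in ΔEGFR (2.08 ± 1.09; 4.18 without WT replicate 4).

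Rhbdf1, the inactive rhomboid that helps bring the ligand-shedding protease ADAM17 to the cell surface, was at 7.07, 5.85, 4.39 and 9.46 CPM in WT and 14, 17.7, 17.6 and 4.36 CPM in ΔEGFR. ΔEGFR replicates 1 to 3 were above all WT libraries and replicate 4 was below them all (1.0 ± 0.39, unadjusted p = 0.0244). It was the 1 member of 15 ligands and shedding proteins with an unadjusted p under 0.05, a share like the 6.66% of all genes tested. Adam17 itself ranged from 21.9 to 37.2 CPM in WT and 20 to 40.8 CPM in ΔEGFR (-0.03 ± 0.26).

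Of 24 genes downstream of ERK, 18 had a negative and 6 a positive log2 fold change, and without WT replicate 1 these were 9 and 15. Ccnd1 (ENSMUSG00000070348.6), the gene of cyclin D1 that carries cells through G1, measured 34.7, 23.7, 14.6 and 69.6 CPM in WT and 109, 213, 139 and 64.4 CPM in ΔEGFR. Only ΔEGFR replicate 4 reached into the WT range, just below WT replicate 4. The means were 35.6 ± 24.1 and 132 ± 62.6 CPM (SD, n = 4 each), and the log2 fold change was 1.88 ± 0.43 (95% interval 0.96 to 2.81, unadjusted p = 0.000698, adjusted p = 0.713 by edgeR). It kept its sign in all 22 alternative settings, between 1.58 and 2.42, and the lowest adjusted p among them was 0.0502. Under CCl4 the same contrast, in other libraries, gave -0.12 (unadjusted p = 0.789 by edgeR).

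Myc, the growth-promoting transcription factor, went the other way, with 167, 37.3, 23.1 and 11.1 CPM in WT and 9.47, 15.6, 12 and 4.11 CPM in ΔEGFR. WT replicate 1 was far above the rest, and WT replicate 4 lay within the ΔEGFR range (-2.53 ± 0.77, unadjusted p = 0.0056; -1.21 without WT replicate 1). The early response genes spread widely in both groups: Egr1 from 157 to 487 CPM in WT and 35.5 to 387 CPM in ΔEGFR, and Fos from 52.8 to 127 and 12.1 to 205 CPM. Feedback genes overlapped too. Dusp6, the ERK phosphatase, ranged from 24.8 to 237 CPM in WT and 47.1 to 110 CPM in ΔEGFR (-0.26 ± 0.57). Spry4 ranged from 9.59 to 22.5 and 2.31 to 26.4 CPM (-0.61 ± 0.66), Spry2 from 0.0998 to 3.26 and 0.248 to 0.862 CPM, and Etv5, an ERK-induced transcription factor, from 4.07 to 12.9 and 4.62 to 12.1 CPM. Etv4 was at 0.146 CPM or less. Among these 24 ERK output genes, 1 was higher and 3 were lower at an unadjusted p under 0.05, beside 2.54% and 4.12% of all genes tested. The list's median of -0.46 became 0.19 without WT replicate 1.

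**Figure D2:**
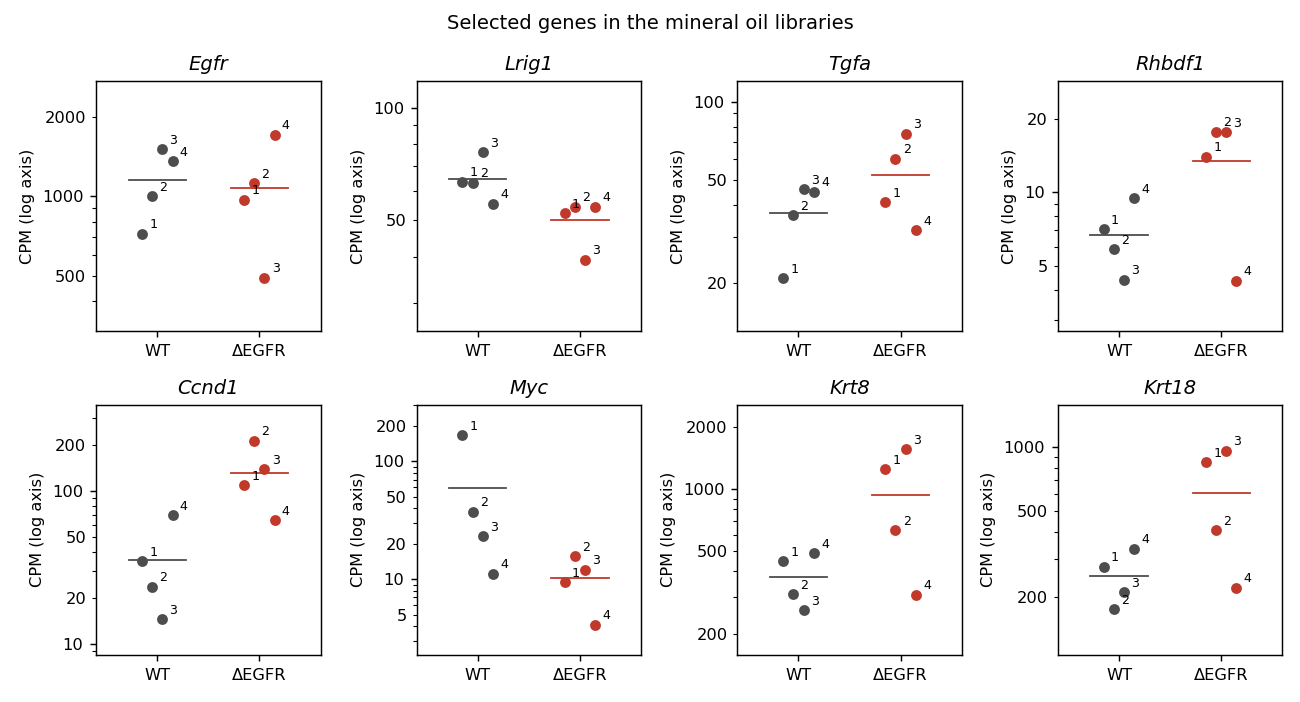
CPM on a log axis in each mineral oil library for 8 genes, with points numbered by replicate and a line at each group's mean. Ccnd1 lies at 14.6 to 69.6 CPM in WT and 64.4 to 213 CPM in ΔEGFR, and ΔEGFR replicate 4 sits at or below the WT mean for Tgfa, Rhbdf1, Krt8 and Krt18.

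Cell cycle genes had mostly positive differences. Of 32 tested, 27 had a higher mean in ΔEGFR, 5 of them at an unadjusted p under 0.05, beside 2.54% of all genes tested. The list's median log2 fold change was 1.10. Mcm2, a subunit of the replicative helicase, measured 10.2, 4.75, 3.21 and 7.2 CPM in WT and 22.9, 9.56, 13.3 and 6.2 CPM in ΔEGFR (1.03 ± 0.40, unadjusted p = 0.0231; 0.59 without ΔEGFR replicate 1). E2f1, the S-phase transcription factor, was at 4.98, 5.09, 3.95 and 8.9 CPM in WT and 11.7, 9.65, 9.51 and 5.8 CPM in ΔEGFR (0.68 ± 0.28, unadjusted p = 0.0279). ΔEGFR replicates 1 and 3 exceeded all WT libraries in both genes and replicate 4 in neither.

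Mki67, the proliferation marker Ki-67, which was chosen after its values were seen, was at 42.3, 2.92, 4.93 and 65.8 CPM in WT and 13.7, 92.4, 143 and 4.3 CPM in ΔEGFR. ΔEGFR replicates 2 and 3 exceeded every WT library, and replicates 1 and 4 lay within the WT range. The log2 fold change was 1.13 ± 1.15. The WT libraries had list means of 3.11, 1.61, 1.69 and 3.8 log2 CPM and the ΔEGFR libraries 3.18, 4.25, 4.67 and 2.13. The 3 lowest libraries, WT replicates 2 and 3 and ΔEGFR replicate 4, were also the 3 lowest in markers of other cells. With the score of those markers as a covariate the list's median was 1.20, and over all 22 settings it ran from 0.64 to 1.64. Under CCl4 the list's median was 0.85.

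Among p53 targets, which the damage-responsive factor p53 induces, Bax, a promoter of apoptosis, measured 16.1, 13.5, 12 and 18.5 CPM in WT and 28.5, 18.5, 28.1 and 14.5 CPM in ΔEGFR (0.58 ± 0.22, unadjusted p = 0.0215). Aen, a p53-induced nuclease, gave 0.52 ± 0.20 (unadjusted p = 0.0213). The other 18 of 20 targets had an unadjusted p of 0.05 or more, and the median was 0.27. Over all genes tested, 2.54% were higher at an unadjusted p under 0.05. Bax is a short gene (895 bases). With the trend with gene length described below removed, Bax gave 0.35 and Aen 0.42, and 1 of the 20 targets had an unadjusted p under 0.05 by edgeR.

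Krt8 and Krt18, the keratins of hepatocytes, had their highest levels in ΔEGFR replicates 1 to 3. Krt8 measured 448, 310, 259 and 490 CPM in WT and 1250, 633, 1560 and 309 CPM in ΔEGFR (1.32 ± 0.46, unadjusted p = 0.0133). Krt18, its partner in the hepatocyte's intermediate filaments, measured 277, 176, 211 and 335 CPM in WT and 849, 410, 959 and 221 CPM in ΔEGFR (1.29 ± 0.47, unadjusted p = 0.0159). The 2 genes ordered the ΔEGFR libraries alike, with replicate 4 inside the WT range for both. S100a10, which binds annexin A2, followed with 63, 43.9, 43.1 and 92.9 CPM in WT and 151, 106, 220 and 49.5 CPM in ΔEGFR (1.12 ± 0.38, unadjusted p = 0.012; 0.85 with the trend with gene length described below removed). These genes belong to a list of 40 keratin and dedifferentiation genes, whose mean log2 CPM was as high in WT replicate 1 (3.98) as in any ΔEGFR library. Of the 40, 25 had a positive difference, 5 of them at an unadjusted p under 0.05, beside 2.54% of all genes tested. The list's median was 0.31. Without WT replicate 1, 38 were positive and the median was 1.21. Bile duct cells express these keratins too, and their marker Krt19 was at 0.0223, 0, 0.0399 and 0.283 CPM in WT and 0.534, 0.113, 0.319 and 0.17 CPM in ΔEGFR. Other bile duct markers did not all follow Krt19. Sox9 was at 186, 6.23, 7.22 and 20.8 CPM in WT and 11.4, 7.95, 23.9 and 14.9 CPM in ΔEGFR. Of the 13 bile duct markers 8 had a positive and 5 a negative difference (median 0.26), and 11 were positive without WT replicate 1. The part of bile duct cells in the result was not tested. Under CCl4, Krt8 and Krt18 had log2 fold changes of the opposite sign, -0.75 and -0.93. The difference of the contrast between treatments was called for 0 genes by edgeR, with 568 at an unadjusted p under 0.05.

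Receptors for other growth signals overlapped between the groups. Met, the receptor for hepatocyte growth factor, ranged from 80 to 146 CPM in WT and 71.9 to 95.7 CPM in ΔEGFR (-0.33 ± 0.17). Insr, the insulin receptor, measured 135, 182, 187 and 186 CPM in WT and 113, 120, 96.2 and 180 CPM in ΔEGFR (-0.44 ± 0.18, unadjusted p = 0.0275). Only ΔEGFR replicate 4 reached the WT range. Insr is a long gene (6421 bases), and its log2 fold change was -0.25 with the trend with gene length described below removed. Fgfr4, the receptor for the gut hormone FGF15, ranged from 28.7 to 72.9 and 49.4 to 63.2 CPM (0.05 ± 0.33). Igfbp1, a secreted binding protein that insulin represses, varied from 26.3 to 421 CPM in WT and 21.6 to 182 CPM in ΔEGFR.

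Genes of hepatocyte identity and metabolism overlapped between the groups. Alb, the albumin gene, ranged from 54100 to 92600 CPM in WT and 49400 to 116000 CPM in ΔEGFR (-0.01 ± 0.41). Cps1, the first enzyme of the urea cycle, ranged from 3000 to 6050 and 3150 to 5410 CPM (-0.14 ± 0.27, 95% interval -0.72 to 0.44). Cyp2e1, the cytochrome that activates CCl4, ranged from 3950 to 8890 CPM in WT and 2300 to 8090 CPM in ΔEGFR (-0.36 ± 0.41). The pericentral enzyme Glul, which makes glutamine, and Cyp7a1, the rate-limiting enzyme of bile acid synthesis, each ranged over more than their difference, with log2 fold changes of -0.35 ± 0.49 and -0.17 ± 0.83. The medians were 0.01 over 16 hepatocyte markers, 0 over 25 pericentral and -0.08 over 24 periportal genes, and -0.03 over 49 urea cycle and amino acid genes, of which 0 had an unadjusted p under 0.05. For 39 of those 49 the 95% interval lay within 2-fold in both directions.

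Some transcription factors of the hepatocyte separated the groups narrowly. Nr3c1, the glucocorticoid receptor, measured 106, 110, 100 and 84.4 CPM in WT and 75.7, 82.6, 63 and 76.9 CPM in ΔEGFR (-0.42 ± 0.14, unadjusted p = 0.0107). Tcf7l2, the nuclear partner of beta-catenin, measured 18.4, 18.7, 12.7 and 17.5 CPM in WT and 12.3, 11.3, 12 and 12.4 CPM in ΔEGFR (-0.49 ± 0.16, unadjusted p = 0.00996). These were 2 of 41 hepatocyte factors lower without overlap, beside 1.29% of all genes, and 0 of the 41 were higher without overlap, beside 1.44%. Stat5b, which carries the growth hormone signal, measured 79.9, 75.9, 75.3 and 92 CPM in WT and 68.6, 69.5, 58.9 and 64.5 CPM in ΔEGFR (-0.31 ± 0.13, unadjusted p = 0.0369). Of 42 growth hormone and sex-biased liver genes, 1 was lower and 0 were higher without overlap, beside 1.29% and 1.44% of all genes. In that list 34 had a negative and 8 a positive difference (median -0.46, and -0.62 without WT replicate 1). With the trend with gene length described below removed, Nr3c1 gave -0.35, Tcf7l2 -0.52 and Stat5b -0.19.

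In lipid metabolism, Plin2, the coat protein of lipid droplets, was at 169, 184, 227 and 286 CPM in WT and 215, 340, 412 and 319 CPM in ΔEGFR. The ΔEGFR replicates 2 to 4 exceeded the WT range (0.57 ± 0.23, unadjusted p = 0.026), and under CCl4 the difference was -0.87. Cidec, which fuses droplets, and Mogat1, which makes diacylglycerol, gave 1.36 ± 0.55 and 2.0 ± 0.82 at low levels of 0.958 to 7.24 and 0.0448 to 1.46 CPM. Of the 41 genes of fatty acid synthesis and lipid droplets, 28 had a positive difference (median 0.08), and 16 without WT replicate 1 (median -0.06). Vnn1, a PPAR-alpha target, measured 8.74, 12.5, 8.36 and 23.8 CPM in WT and 23.8, 46.4, 19.4 and 19.3 CPM in ΔEGFR (1.03 ± 0.38, unadjusted p = 0.0167). Fgf21, the fasting hormone, was at 12.5 CPM in ΔEGFR replicate 2 and 0.112 to 1.79 CPM in the other 7 libraries. Of 40 genes of fatty acid oxidation and ketogenesis 37 had a positive difference, 2 of them at an unadjusted p under 0.05, beside 2.54% of all genes tested. The list's median was 0.18, and 25 of its genes were positive without WT replicate 1.

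Most interferon-stimulated genes and leukocyte markers had lower means in ΔEGFR with all libraries, but not once WT replicate 1 was left out. Of 40 interferon-stimulated genes 37 had a negative difference, 6 of them at an unadjusted p under 0.05, beside 4.12% of all genes tested. The list's median was -0.60. Without WT replicate 1, 19 were negative and the median was 0. Without that library the leukocyte lists turned positive, in 13 of 13 neutrophil, 13 of 13 B and plasma cell, 17 of 18 T and NK cell and 19 of 24 macrophage and Kupffer cell markers. Irgm2, an interferon-induced GTPase, measured 128, 55.6, 118 and 34 CPM in WT and 33, 55.5, 32.4 and 37.9 CPM in ΔEGFR (-1.08 ± 0.35, unadjusted p = 0.00896). Ifi47, another such GTPase, gave -0.56 ± 0.22. Mx2, an antiviral protein, was at 24.8 CPM in WT replicate 1 and 3.16 to 5.49 CPM in the other 7 libraries. Nlrc5, which activates the MHC class I genes, was at 68.5 CPM in that library and 13.6 to 26.3 CPM in the others. Cd163, a macrophage scavenger receptor, was at 84.5, 21.3, 4.93 and 17.8 CPM in WT and 9.96, 2.75, 5.25 and 1.23 CPM in ΔEGFR (-2.74 ± 0.83, unadjusted p = 0.00573; -1.61 without WT replicate 1). Of 33 heat shock and isolation genes 25 were negative, and 8 without WT replicate 1. Dnajb1, a heat shock chaperone, was at 766 CPM in WT replicate 1 and 27 to 64 CPM in the other 7.

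**Figure D3:**
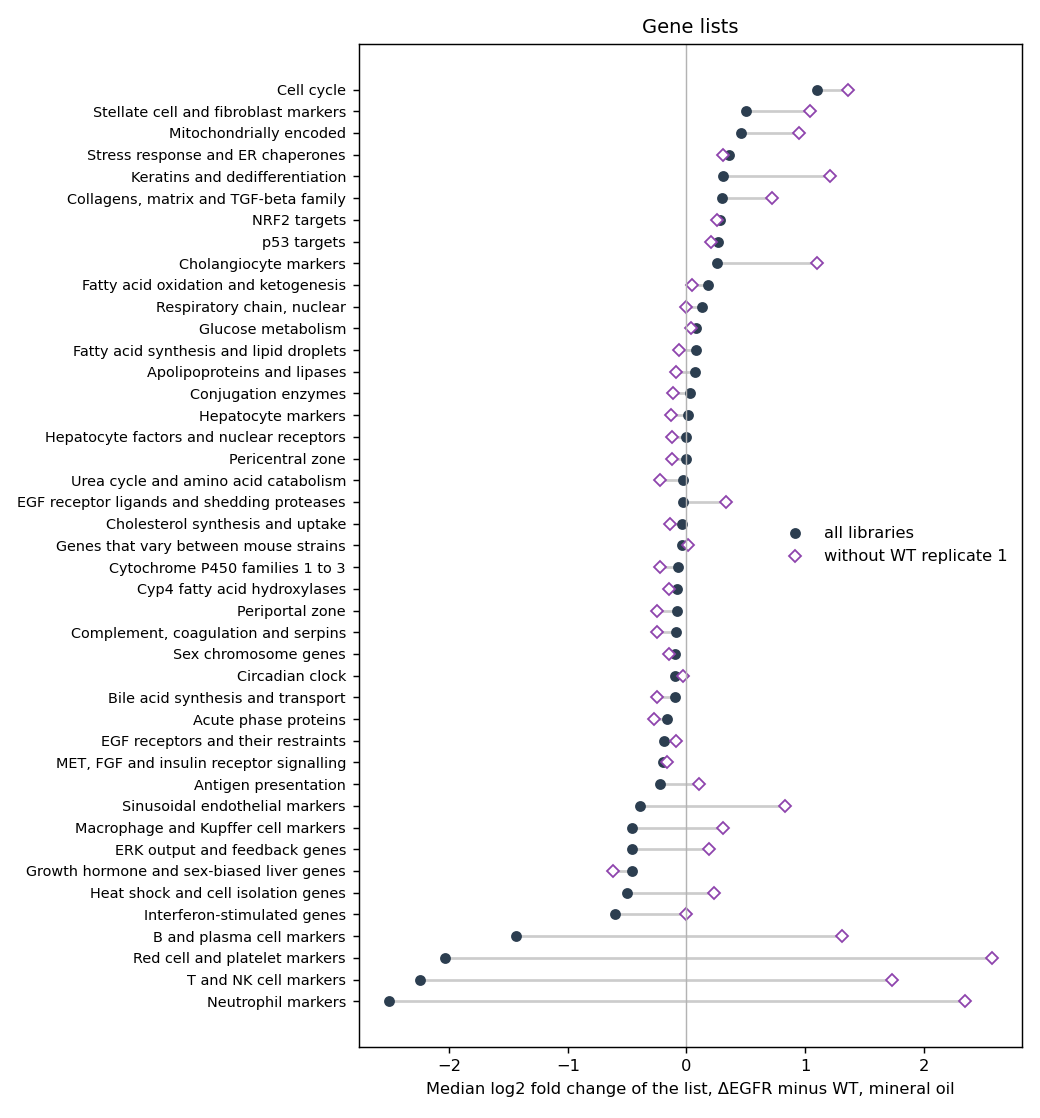
The median log2 fold change (ΔEGFR minus WT, mineral oil) of each of 43 gene lists with all libraries (filled) and without WT replicate 1 (open). Neutrophil markers move from -2.51 to 2.35 and red cell and platelet markers from -2.04 to 2.58, while the cell cycle list stays at 1.10 and 1.36.

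The rule for named genes took, among genes averaging 2 or more on the log2 CPM scale with groups that did not overlap, those with the lowest unadjusted p. The genes lower in ΔEGFR included Tnrc6b, a scaffold of microRNA silencing, at 93.5, 71.9, 61.8 and 64.9 CPM in WT and 40.2, 50.8, 47.5 and 48.1 CPM in ΔEGFR (-0.65 ± 0.14, unadjusted p = 0.000368). Hectd4, a large ubiquitin ligase, measured 60.8, 67.3, 66.2 and 58.7 CPM in WT and 34.7, 48.3, 36.8 and 48.5 CPM in ΔEGFR (-0.59 ± 0.13, unadjusted p = 0.00045), and was called by DESeq2 alone (adjusted p = 0.0441). Also on this side were Inpp4a, Tmem131, Sesn3, Ulk2, Phc3, Bod1l and Foxn3. The adjusted p of these genes was 0.713 by edgeR in every case, the same as for the 10 below. Under CCl4, Ulk2 was higher in ΔEGFR without overlap (0.42), and the groups overlapped for the others named on this side.

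On the higher side, Commd2 measured 6.23, 7.62, 6.78 and 8.2 CPM in WT and 10, 11.5, 13.4 and 9.21 CPM in ΔEGFR (0.61 ± 0.14, unadjusted p = 0.000843), and was also called by DESeq2 (adjusted p = 0.0404). Timm8b, a chaperone of the mitochondrial intermembrane space, was at 14.1 to 17.4 CPM in WT and 20.2 to 22.8 CPM in ΔEGFR (0.52 ± 0.13). Nme2, a nucleoside diphosphate kinase, was at 86.5 to 133 CPM in WT and 149 to 174 CPM in ΔEGFR (0.49 ± 0.16). The other 7 were Adss, Gimd1, Tmem208, Ciao2a, Psmd10, 1810037I17Rik and Nxt1. Under CCl4, Adss was lower in ΔEGFR without overlap (-0.14) and Commd2 higher without overlap (0.18). For the rest of these genes the CCl4 groups overlapped. The 9 genes given on the lower side were 4614 to 13819 bases long and the 10 on the higher side 518 to 2730 bases.

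**Figure D4:**
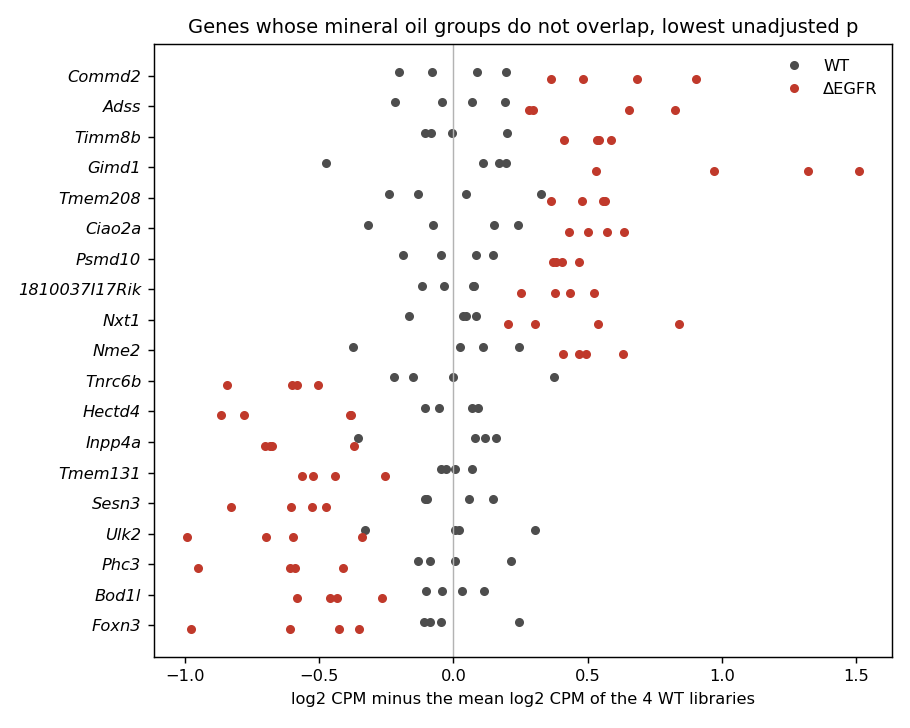
Log2 CPM in each mineral oil library minus the mean of the 4 WT libraries, for 10 genes higher and 9 genes lower in ΔEGFR, among those with the lowest unadjusted p whose groups do not overlap. The gaps are narrow: Inpp4a was at 26.2 CPM in its lowest WT library and 25.9 CPM in its highest ΔEGFR library.

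A split by length was also seen over all genes of such levels. In the 10443 genes that averaged 2 or more on the log2 CPM scale, the median log2 fold change went from 0.20 in the 1045 shortest genes (up to 1067 bases) to -0.24 in the 1045 longest (5172 bases or more). Of the longest, 204 were lower and 1 higher at an unadjusted p under 0.05, and of the shortest 83 were higher and 6 lower. These counts stand beside 2.54% higher and 4.12% lower among all genes tested. For slopes on length, each gene's log2 CPM was taken relative to its mean over the libraries of the same treatment. Slopes of this relative level per doubling of gene length were 0.185, -0.015, 0 and 0.089 in the WT libraries. In the ΔEGFR libraries they were -0.118, -0.032, -0.017 and -0.092. Their signs therefore compare libraries with each other and are not a dependence on length within 1 library. The groups did not overlap, with a gap between -0.015 and -0.017 (two-sided exact permutation p = 0.0286, the smallest that 70 arrangements allow, and a measure chosen after the data were seen). Under CCl4 the slopes overlapped, with means of 0.013 ± 0.052 (n = 3) and -0.01 ± 0.106 (n = 4; exact permutation p = 0.857), and the medians ran from 0.12 to -0.02. Mean fragment length was 154.8 to 162.3 bases in WT and 157.2 to 165.1 bases in ΔEGFR, and its part in the trend was not tested. With the trend removed from each library, Tnrc6b gave -0.32, Hectd4 -0.21, Commd2 0.43 and Timm8b 0.25. Other genes without overlap changed less. Inpp4a gave -0.53 beside -0.61 as reported, Ulk2 -0.59 beside -0.65, and Gimd1 0.94 beside 1.10. Ccnd1 gave 1.94, Krt8 1.21 and Mcm2 1.04.

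**Figure D5:**
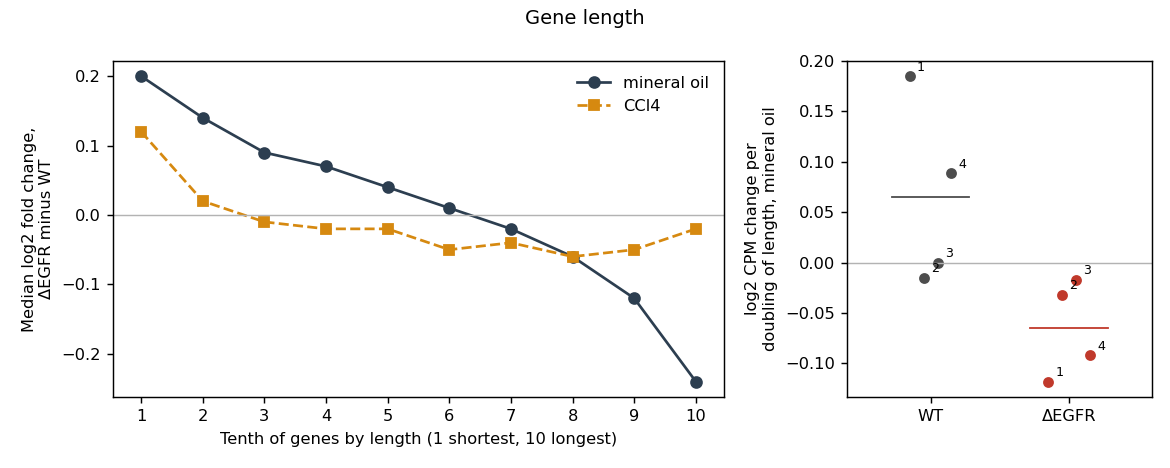
Left, the median log2 fold change (ΔEGFR minus WT) in 10 equal classes of genes by length, for mineral oil and for CCl4. Right, the slope on length of log2 CPM relative to each gene's mean over the mineral oil libraries, with a line at the group mean. WT lies between -0.015 and 0.185 and ΔEGFR between -0.118 and -0.017.

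The CCl4 libraries give the same contrast in other libraries. There 0 genes were called by edgeR and 411 had an unadjusted p under 0.05, and 482 genes (2.68%) were higher and 427 (2.38%) lower without overlap. Of 17975 genes tested, 4 were higher without overlap in both treatments and 5 were lower, while 6 went in opposite directions. How many would be shared by chance was not worked out, so these counts are not read as a shared effect. Of the 1197 genes with an unadjusted p under 0.05 in mineral oil, 60.3% had the same sign under CCl4, beside 56.6% of all genes. Gm5814 (ENSMUSG00000096361.3) and Gm5529, predicted genes chosen here after their values were seen, separated all 8 ΔEGFR libraries from all 7 WT libraries. Gm5814 had 5, 1, 3 and 1 counts in the WT mineral oil libraries and 28, 27, 35 and 12 in ΔEGFR, and 5, 4 and 11 against 53, 37, 10 and 26 under CCl4. Its CPM was 0.0188 to 0.0599 against 0.157 to 0.287 in mineral oil (2.66 ± 0.44, unadjusted p = 3.54e-05, adjusted p = 0.636 by edgeR) and 0.0526 to 0.0927 against 0.168 to 0.336 under CCl4 (1.89). DESeq2 called it in mineral oil (adjusted p = 0.0404). Gm5529 had a difference of 1.3 ± 0.35. For both genes the WT counts were mostly under the low-count filter's minimum of 10. They passed that filter through the ΔEGFR libraries, where they were high. Their separation and the p-value are therefore no independent support for a difference. Whether near-identical copies share reads with these predicted genes was not tested.

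Genes that tell libraries apart by sex or strain did not separate the groups. The Y-linked genes Ddx3y and Eif2s3y were counted in all 8 libraries, at 34.1 to 62.4 and 24.1 to 38.4 CPM, and Xist did not pass the filter on low counts. Nnt, which some substrains of C57BL mice carry in a deleted form, was at 35.3 to 59.1 CPM in WT and 38.2 to 84.8 CPM in ΔEGFR (0.34 ± 0.28).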

How the data were processed

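Primary hepatocyte RNA was extracted with RNA STAT 60 and sequenced from stranded mRNA libraries (KAPA kit), per the labels' protocols. STAR 2.7.8a, RSEM 1.3.0 and build GRCm39 are named in the submitters' processing notes. Which annotation and strand setting were used is not given in the sources used here. The deposited files hold RSEM expected counts per gene. The authors' TPM values in the same deposited files were used only for an alternative test. Ensembl IDs were paired with names from a GENCODE table of another build, for names alone (52029 of 56953 IDs).

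After rounding, the counts entered edgeR 4.0.16 (R 4.3.3): filterByExpr (minimum count 10, minimum total 15), TMM factors, 1 mean for each of 4 groups over all 15 libraries, robust quasi-likelihood, two-sided, Benjamini-Hochberg adjustment over all genes tested and a threshold of 0.05. The test was tested on simulated data. CPM uses TMM-scaled totals, and log2 CPM a prior count of 2. Intervals are 95% intervals from the fit. Log2 fold changes are given ± SE. Reads carry no molecular identifiers, so depth overstates independent molecules.

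Alternatives were the 8 mineral oil libraries alone, other factors and filters, DESeq2 1.42.0, limma 3.58.1 on log2(TPM + 1) and log2(TPM + 0.1), covariates for other-cell markers and depth, thinning to 51.7 M (megacounts), and each library left out. Removing the trend with length, and leaving out the 2 libraries with over 10% mitochondrial counts, were added after the data were seen. Named genes were the 10 per direction with the lowest unadjusted p, a log2 CPM of 2 or more on average and groups without overlap, the 3 members of each list with the lowest p, and a fixed set around EGFR, of which the text prints a selection. A gene that the rule names is not reported here. Of 1192 entries in 43 lists, 9 had no matching gene and 22 were not tested. Members and lists were chosen with earlier results of these data known. Replicates were numbered in order of deposit.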

Additional observations from a re-analysis of the deposited data

Results flagged for a closer look

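These values stood far from the other 3 libraries of their group by Dixon's test. Over 81 genes and 2 groups per gene, chance alone flags about 1 in 20. In WT replicate 1 these were the total count (136 M, in megacounts, against 56.9 to 61.9), the mitochondrial share (11.8% against 3.31% to 3.51%) and the mean log2 CPM of hepatocyte markers (11.2 against 11.9 to 12). The same library was apart for Myc (167 CPM), Dnajb1 (766 CPM), Mx2 (24.8 CPM), Spry2 (3.26 CPM), Insr (135 CPM, low) and Gimd1 (1.62 CPM, low). In ΔEGFR replicate 1 the mitochondrial share was 16.9% against 2.17% to 4.64%. Single libraries also stood apart for Cyp7a1 (304 CPM) and Foxn3 (104 CPM) in WT replicate 2, for Fgf21 (1.6 CPM) and Nrg1 (5.09 CPM) in WT replicate 4, and for Fgf21 (12.5 CPM) and Vnn1 (46.4 CPM) in ΔEGFR replicate 2. In ΔEGFR replicate 3 they were Lrig1 (39.2 CPM, low) and Etv5 (12.1 CPM), and in ΔEGFR replicate 4 Inpp4a (25.9 CPM) and Eif2s3y (38.4 CPM). The difference of the ΔEGFR against WT contrast between treatments was called for 0 genes by edgeR. CCl4 against mineral oil within a genotype was not tested here.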

How the results depend on the processing

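The number of called genes was 0 in 21 of 22 alternatives, and DESeq2 called 5 (Commd2, Gm5814, Gm38257, Med6 and Hectd4, with adjusted p of 0.0404 to 0.0441). The count at an unadjusted p under 0.05, 1197 as reported, was 578 with the 8 mineral oil libraries alone, 2045 with no filter on low counts, 1870 with DESeq2, 337 and 390 with limma on log2(TPM + 1) and log2(TPM + 0.1), 1890 with total count as a covariate, 718 without the 2 libraries with over 10% mitochondrial counts, and 796 to 1920 with each library left out. The cause of these shifts was not tested. The trend with gene length kept its direction in every setting, with a Spearman correlation of -0.45 to -0.24 beside -0.40 as reported. The exception in size was its own removal, which takes it out by design and left -0.04. The difference in total count was 39.8 to 66 M (megacounts) with each library left out and passed the exact permutation test only without WT replicate 1 (66 M). No paired analysis was possible because the labels give no replicate numbers or animals.

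Of the 81 genes followed, none called in the main test, 62 values out of 1773 had the opposite sign, and the cause was not tested. With total count as a covariate the log2 fold changes were 0.36 for Egfr, 0.56 for Erbb3, 0.35 for Alb, 0.10 for Cyp7a1 and 0.19 for Cps1. With the length trend removed they were 0.02 for Egfr, 0.07 for Erbb2, 0.04 for Erbb3 and 0.02 for Adam17. With the other-cell score as a covariate they were 0.10 for Erbb2, 0.27 for Dusp6, 0.04 for Areg and 0.15 for Spry2. Without the 2 libraries of high mitochondrial share they were 0.10 for Erbb2, 0.06 for Hbegf, 0.16 for Adam17, 0.81 for Dusp6, 0.34 for Etv5, -0.21 for Fgfr4, 0.02 for Alb, 0.81 for Dnajb1, 0.06 for Eif2s3y, 1.28 for Areg, 0.94 for Spry2 and 0.23 for Igfbp1. With no filter they were 0.05 for Adam17, 0.07 for Alb and 0.01 for Eif2s3y. The 2 limma settings gave 0.10 and 0.12 for Dusp6 and -0.23 and -0.25 for Fos. With each library left out, the ranges were -0.43 to 0.14 for Egfr, -0.81 to 0.76 for Erbb2, -0.38 to 0.06 for Erbb3, -1.70 to 0.13 for Hbegf, -0.27 to 0.12 for Adam17, -0.57 to 0.71 for Dusp6, -0.56 to 0.25 for Etv5, -0.28 to 0.71 for Fos, -0.16 to 0.23 for Fgfr4, -0.29 to 0.16 for Alb, -0.95 to 0.65 for Cyp7a1, -0.91 to 0.20 for Glul, -0.30 to 0.02 for Cps1, -2.57 to 0.68 for Dnajb1, -0.26 to 0.01 for Eif2s3y, -1.82 to 0.88 for Areg, -1.27 to 1.25 for Spry2 and -0.10 to 0.97 for Etv4. Ccnd1, Krt8, Krt18, Mcm2, Lrig1 and the 19 named genes whose groups did not overlap kept their sign in all 22 settings.

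Genes under a mean log2 CPM of 0 were the least precise: the interval lay within 2-fold for 8.5% of 5175 of them.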
